A study of Mus musculus with 12 samples.

Results

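The 10 genes described here encode lipid-sensing nuclear receptors and their coactivators: the peroxisome proliferator-activated receptors (PPARs) Ppara, Ppard and Pparg, the retinoid X receptors (RXRs) Rxra, Rxrb and Rxrg, the liver X receptors (LXRs) Nr1h2 (LXRβ) and Nr1h3 (LXRα), and the PGC-1 coactivators Ppargc1a and Ppargc1b. They were chosen by name, as the rows of the raw gene count table whose mouse Ensembl identifier carries 1 of these symbols in the annotation of GRCm38. This rule used no measured value, but earlier results of these data were known when it was set. The table holds 50563 genes, and all 10 were among the 15688 genes kept by edgeR's filterByExpr, which drops genes with too few counts. RNA-Seq was measured in the brain cortex of 12 aged E4FAD mice, with 1 library per mouse, to learn what gavage with n-6 docosapentaenoic acid (DPAn-6), a long-chain omega-6 fatty acid, does to brain mRNA. The CTRL group held 7 mice given the vehicle, which contained antioxidants that the DPAn-6 preparation held as well, and 5 mice in the DPAn-6 group received DPAn-6 as its ethyl ester, both daily by oral gavage. Every mouse had the genotype APOE4+/+, 5FAD-/+. Both groups therefore carried human APOE4 in place of the mouse gene and the 5xFAD transgenes, which overproduce human amyloid-β and are driven in neurons by the Thy1 promoter, and mice without the transgenes were not compared here. In CTRL, 2 mice were 12 months and 5 were 14 months of age. In DPAn-6, 2 mice were 12 months and 3 were 14 months of age. Sex is not labelled for single mice.

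PPARs and LXRs bind DNA as heterodimers with an RXR. Fatty acids and their oxygenated products are ligands of PPARs, oxysterols are ligands of LXRs, and retinoids and some long-chain polyunsaturated fatty acids can bind RXRs. PGC-1 coactivators carry no DNA-binding receptor domain of their own. They dock on PPARs and other nuclear receptors and raise the transcription of mitochondrial and fatty acid oxidation genes. In brain, LXRs are known for the control of cholesterol export to APOE particles, PPARs for fatty acid oxidation and for restraint of inflammatory genes in glia, and Ppargc1a for its high expression in inhibitory neurons.

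The promoters of the family differed in base composition. RefSeq windows in GRCm38.p6, from 250 bases before to 50 bases after a transcription start, were read for 9 of the 10 genes, as 15 windows. Ppargc1b was left out of this search, and its promoter is not reported here. Rxra held the most CpG pairs, with 55 in its first window and 1 in its second. Rxrb held 37 and 47, Pparg 44, 13 and 2 in its 3 windows, Ppara 30, Ppard 27, Nr1h2 19, Rxrg 13 and 9, Nr1h3 8 and 10, and Ppargc1a 5. Over 32851 RefSeq windows of this length the median was 7 CpG pairs and the upper quartile was 20. The GC box GGGCGG, searched on both strands, lay in 7 of the 15 windows and in 35.7% of all windows. The hexamer AGGTCA, the core of nuclear receptor response elements, lay in 4 of the 15 windows and in 16.3% of all windows. Direct repeats of it spaced by 1 base or by 4 bases lay in none of the 15. They lay in 0.0396% and 0.0152% of all windows, so their absence does not set these genes apart. The E-box CACGTG lay in none of the 15 windows and in 7.15% of all windows, and TATAAA lay in 1 window, of Pparg, and in 13.6% of all windows. The windows of 3 genes are shown because they stand for the 3 patterns of expression described next, the highest level (Nr1h2), the lowest p between the groups (Ppara) and the widest spread between mice (Rxrg). CpG pairs are in capitals, and each window is read 5′ to 3′ on the strand of its gene, at chr7:44553916-44554215 on the minus strand for Nr1h2, chr15:85735526-85735825 on the plus strand for Ppara and chr1:167598112-167598411 on the plus strand for Rxrg.
Nr1h2: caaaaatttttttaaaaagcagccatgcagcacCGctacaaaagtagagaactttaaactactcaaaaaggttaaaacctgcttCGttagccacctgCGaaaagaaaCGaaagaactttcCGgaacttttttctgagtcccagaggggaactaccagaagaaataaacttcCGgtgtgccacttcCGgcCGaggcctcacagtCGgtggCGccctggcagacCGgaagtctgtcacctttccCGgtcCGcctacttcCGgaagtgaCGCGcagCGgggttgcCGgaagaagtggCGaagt
Ppara: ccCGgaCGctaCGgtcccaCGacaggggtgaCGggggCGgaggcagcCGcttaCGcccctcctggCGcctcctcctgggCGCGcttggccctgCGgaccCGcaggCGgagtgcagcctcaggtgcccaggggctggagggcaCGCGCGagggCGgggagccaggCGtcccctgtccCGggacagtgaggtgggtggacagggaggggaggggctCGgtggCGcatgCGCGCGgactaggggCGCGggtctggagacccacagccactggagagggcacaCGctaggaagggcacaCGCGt
Rxrg: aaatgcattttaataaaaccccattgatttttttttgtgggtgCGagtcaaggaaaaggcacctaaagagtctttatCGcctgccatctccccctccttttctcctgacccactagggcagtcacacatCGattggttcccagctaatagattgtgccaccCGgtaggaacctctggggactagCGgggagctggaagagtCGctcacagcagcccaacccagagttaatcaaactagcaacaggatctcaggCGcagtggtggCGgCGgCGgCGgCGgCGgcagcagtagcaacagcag
The Ppara window had a GC content of 74.7% and 2 GC boxes, against 53.7% and no GC box for Rxrg and 50.7% and no GC box for Nr1h2.

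Total counts on genes ranged from 15339098 to 19500154 in CTRL mice and from 15208803 to 26520251 in DPAn-6 mice. Values are given as log2 CPM, the log2 of CPM (the count relative to the library total), with library totals corrected by TMM factors and 0.5 added to each count. CTRL replicate 3 stood apart from the other libraries. Its root mean square deviation from the mean of its group was 0.562 on the log2 scale over all genes tested, against 0.206 to 0.331 for the other 11 mice. Across genes, its deviation from the mean of the 12 mice was lower at higher transcript GC content (Spearman rho −0.60, where the other mice lay between −0.41 and 0.46; genes are not independent replicates). Fold changes of the 10 genes that rest on this mouse are therefore given with and without it. Values for the pathway and marker lists include it unless stated otherwise. Because the tissue is bulk cortex, fewer cells of a type and less RNA per cell cannot be told apart. Summed markers of several cell types moved with the groups. Of 12 microglial markers, 12 were lower in DPAn-6 and 4 had an adjusted p below 0.05 by edgeR, with a summed level of 1217 to 1839 CPM in CTRL and 842 to 1199 CPM in DPAn-6. All 10 leptomeningeal fibroblast markers were lower, 4 of them with an adjusted p below 0.05, with sums of 132 to 268 CPM in CTRL and 79.9 to 156 CPM in DPAn-6. The 6 choroid plexus markers tested, of 10, were also lower, none with an adjusted p below 0.05 by edgeR. Their sums were 15.5 to 1757 CPM in CTRL and 8.94 to 25.4 CPM in DPAn-6. The upper CTRL values came from replicates 2, 5 and 3 (1757, 1066 and 233 CPM). The other CTRL mice had 15.5 to 37.7 CPM. Endothelial markers were lower in 6 of 10 genes, beside 51.3% of all genes tested. Their median log2 fold change was −0.06, and none had an adjusted p below 0.05 by edgeR. Their sums were 434 to 513 CPM in CTRL and 399 to 446 CPM in DPAn-6. Oligodendrocyte markers moved the other way, with 8 of 10 higher, 6 of them at an unadjusted p below 0.05 and none at an adjusted p below 0.05 by edgeR, and sums of 5193 to 6953 CPM in CTRL and 6137 to 6892 CPM in DPAn-6. The part of any of these in the differences reported was not tested.

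None of the 10 genes differed between DPAn-6 and CTRL mice at an adjusted p below 0.05 by edgeR's quasi-likelihood test, where 1.55% of the 15688 genes tested did (243 genes, 64 higher and 179 lower). DESeq2 and limma-voom also called 0 of the 10. At an unadjusted p below 0.05 there were 2 of the 10, Ppara and Ppargc1b, beside 14.5% of all genes tested. Both were lower in DPAn-6, beside 9.02% of all genes. Of the 10 genes, 6 had a negative and 4 a positive log2 fold change, with a median of −0.05, beside a median of −0.00 and 51.3% negative over all genes tested. The groups overlapped for every one of the 10 genes, whereas 3.1% of all genes tested did not overlap. Each p-value measures the spread between mice, since each mouse gave 1 library.

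**Figure D1:**
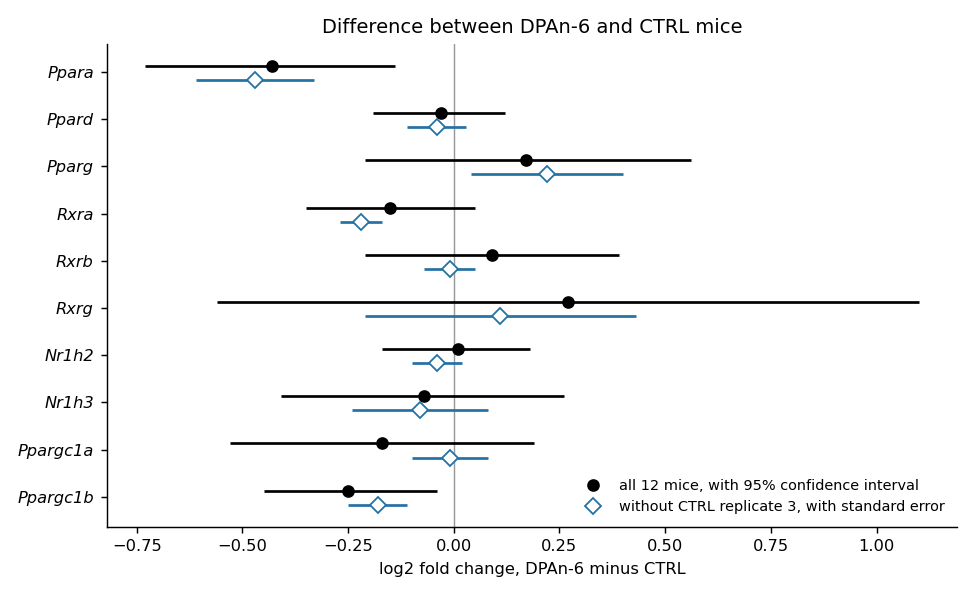
Log2 fold change of each gene (x axis, DPAn-6 minus CTRL) in all 12 mice, as black circles with the 95% confidence interval from the edgeR fit, and without CTRL replicate 3, as open blue diamonds with the standard error. The interval in all mice lies below 0 for Ppara (−0.73 to −0.14) and Ppargc1b (−0.45 to −0.04) and crosses 0 for the other 8 genes, and Rxra moves from −0.15 to −0.22 without that mouse.

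None of the 3 PPARs passed the adjusted threshold, and Ppara had the lowest p of the 10 genes. Ppara (ENSMUSG00000022383; chromosome 15, 85734983 to 85802819) encodes PPARα, which drives peroxisomal and mitochondrial fatty acid oxidation. In CTRL mice its mRNA expression ranged from 1.80 to 2.40 log2 CPM with a median of 1.96. In the DPAn-6 mice it was 1.35, 1.62, 1.53, 1.91 and 1.65 log2 CPM in replicates 1 to 5. All 5 DPAn-6 mice lay below the CTRL mean and 4 of them lay below every CTRL mouse, with replicate 4 inside the CTRL range. Its log2 fold change was −0.43 (standard error 0.14, 95% confidence interval −0.73 to −0.14), a level 26.0% lower by the fitted fold. The unadjusted p was 0.00737 and the adjusted p 0.149 by edgeR, and a two-sided exact permutation test over the 792 splits of the mice gave p = 0.00758. The unadjusted p was below 0.05 under all 23 alternative settings run, and the adjusted p ranged from 0.0535, without CTRL replicate 3, to 0.486. The gene was measured from 47 to 84 counts per mouse, which limits its precision. Microglial markers were lower in DPAn-6 as well. Over all mice, without regard to group, the Pearson r of Ppara with their sum was 0.72. Within the groups r was 0.33 (Spearman rho = 0.34, permutation p = 0.315, and r = 0.09 when the 2 mice with the most extreme sums were left out). The relation within groups leaves out the difference between the groups, and the part of microglia in that difference was not tested. Without regard to group, r of Ppara with the sums of the other marker lists ran from −0.486 for parvalbumin interneurons to 0.629 for choroid plexus.

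Ppard (ENSMUSG00000002250; chromosome 17, 28232700 to 28301474) encodes the widely expressed receptor PPARδ. It ranged from 5.26 to 5.67 log2 CPM in CTRL, with a median of 5.47, and was 5.59, 5.37, 5.47, 5.36 and 5.37 in DPAn-6 replicates 1 to 5. The DPAn-6 mice lay within the CTRL range, and the log2 fold change was −0.03 (standard error 0.07, 95% confidence interval −0.19 to 0.12, unadjusted p = 0.653 by edgeR). Pparg (ENSMUSG00000000440; chromosome 6, 115360951 to 115490399) encodes PPARγ, the receptor of adipocyte differentiation and of the thiazolidinedione drugs. It ranged from 1.42 to 2.19 log2 CPM in CTRL with a median of 1.83, and was 2.47, 2.12, 1.80, 2.34 and 1.51 in DPAn-6 replicates 1 to 5, so that DPAn-6 mice lay both above and within the CTRL range. DPAn-6 differed from CTRL by a log2 fold change of 0.17 (standard error 0.18, 95% confidence interval −0.21 to 0.56, unadjusted p = 0.355 by edgeR), and it was 0.06 when DPAn-6 replicate 1 was left out and 0.30 when DPAn-6 replicate 5 was.

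**Figure D2:**
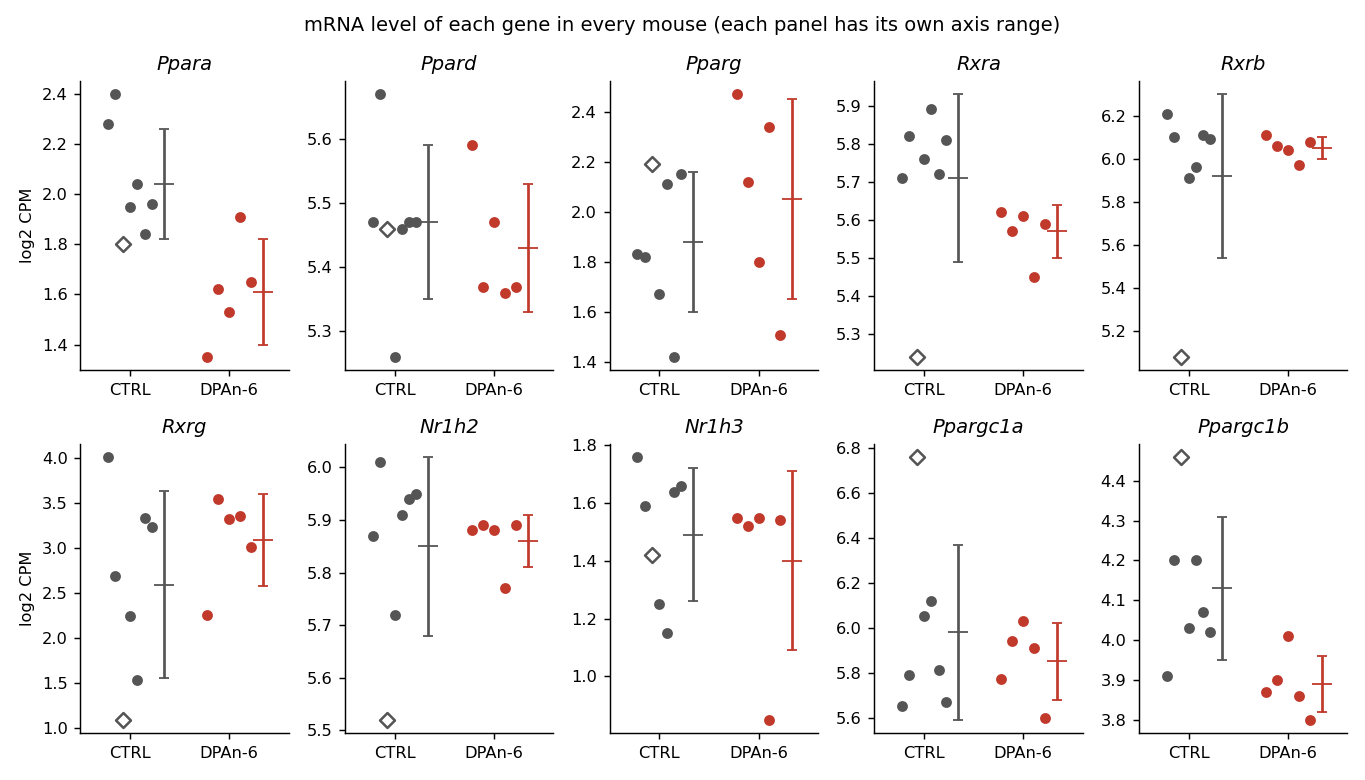
Log2 CPM (y axis, with a range of its own in each panel) of each of the 10 genes in every mouse, with CTRL in grey and DPAn-6 in red, the mean and SD of the group to the right of its points, and CTRL replicate 3 as an open diamond. That mouse is the lowest CTRL value for Rxra (5.24), Rxrb (5.08), Rxrg (1.09) and Nr1h2 (5.52) and the highest for Ppargc1a (6.76) and Ppargc1b (4.46), and the 5 DPAn-6 values of Rxrb lie between 5.97 and 6.11.

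The RXRs are the shared partners of PPARs and LXRs, and the comparison of Rxra turned on a single mouse. Rxra (ENSMUSG00000015846; chromosome 2, 27676440 to 27762957) ranged from 5.24 to 5.89 log2 CPM in CTRL with a median of 5.76. It was 5.62, 5.57, 5.61, 5.45 and 5.59 in DPAn-6 replicates 1 to 5. The value of 5.24 was CTRL replicate 3, and the other 6 CTRL mice, from 5.71 to 5.89, lay above every DPAn-6 mouse. With all mice the log2 fold change was −0.15 (standard error 0.09, 95% confidence interval −0.35 to 0.05, adjusted p = 0.507 by edgeR, exact permutation p = 0.201). Without CTRL replicate 3 the estimate was −0.22, its standard error 0.05 and its adjusted p 0.0234 by edgeR, where 6.1% of the 15616 genes then tested had an adjusted p below 0.05. The groups then did not overlap, beside 5.1% of all genes, and the exact permutation p was 0.00216, the smallest that 6 against 5 mice allow. No other setting gave any of the 10 genes an adjusted p below 0.05.

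Rxrb (ENSMUSG00000039656; chromosome 17, 34031812 to 34038399) ranged from 5.08 to 6.21 log2 CPM in CTRL with a median of 6.09, and was 6.11, 6.06, 6.04, 5.97 and 6.08 in DPAn-6 replicates 1 to 5. The DPAn-6 mice lay within 0.14 of each other and inside the CTRL range, whose lower end was again CTRL replicate 3. The log2 fold change was 0.09 (standard error 0.14, 95% confidence interval −0.21 to 0.39, unadjusted p = 0.529 by edgeR) with all mice and −0.01 (standard error 0.06) without CTRL replicate 3, so its sign rested on that mouse. Rxrg (ENSMUSG00000015843; chromosome 1, 167598384 to 167639623), the member of the family with the most restricted expression in brain, varied more between mice than between groups. It ranged from 1.09 to 4.01 log2 CPM in CTRL with a median of 2.69, from 31 to 273 counts, and was 2.25, 3.54, 3.32, 3.35 and 3.01 in DPAn-6 replicates 1 to 5. The CTRL range covered every DPAn-6 mouse. The log2 fold change of 0.27 had a standard error of 0.39 and a 95% confidence interval from −0.56 to 1.10 (unadjusted p = 0.503 by edgeR), so a difference between the groups of either sign could not be resolved. The estimate ran from 0.11 without CTRL replicate 3 to 0.58 without CTRL replicate 1, and was 0.49 by limma-voom, 0.64 in the 14-month mice only and 0.77 with the replicate block, with no unadjusted p below 0.05.

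Rxrg moved with markers of striatal neurons. The summed level of 9 such markers ranged from 391 to 994 CPM in CTRL and from 376 to 746 CPM in DPAn-6, and the mouse with the highest sum, CTRL replicate 1, had the highest Rxrg. With both measures centred on their group means, Pearson's r over the 12 mice was 0.927 and Spearman's rho 0.877 (permutation within groups with 100000 resamples, p = 4e-05 and p = 0.00011). Leaving out DPAn-6 replicate 1 and CTRL replicate 3, whose log2 sums lay farthest from the median, r was 0.950, and leaving out CTRL replicate 1 and DPAn-6 replicate 1, the farthest in CPM, r was 0.973. This was 1 of 100 relations computed between the 10 genes and 10 marker lists, a family chosen after other values of these data had been seen, and the only 1 with an adjusted p below 0.05 (Benjamini-Hochberg adjusted permutation p = 0.004). Of the other 99 relations, 6 had an unadjusted permutation p below 0.05. For the sum of the striatal markers itself, CTRL and DPAn-6 were not separated beyond the scatter of the mice (exact permutation p = 0.552, two-sided).

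**Figure D3:**
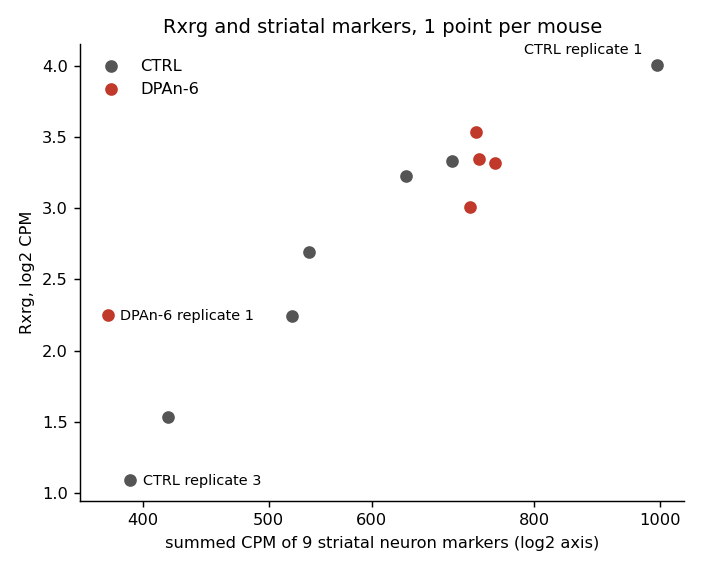
Log2 CPM of Rxrg (y axis) against the summed CPM of 9 striatal neuron markers (x axis, log2 scale), 1 point per mouse, with CTRL in grey and DPAn-6 in red. The points run from CTRL replicate 3 at 391 CPM and 1.09 log2 CPM to CTRL replicate 1 at 994 CPM and 4.01 log2 CPM, and 4 of the 5 DPAn-6 mice sit together between 714 and 746 CPM while DPAn-6 replicate 1 has 376 CPM.

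The LXRs bind oxysterols and raise the transcription of cholesterol export genes, and neither separated the groups beyond the scatter of the mice. Nr1h2 (ENSMUSG00000060601; chromosome 7, 44549616 to 44553951) ranged from 5.52 to 6.01 log2 CPM in CTRL with a median of 5.91, and was 5.88, 5.89, 5.88, 5.77 and 5.89 in DPAn-6 replicates 1 to 5. The DPAn-6 mice lay inside the CTRL range and 4 of the 5 lay within 0.01 of each other. The fitted log2 fold change was 0.01 (standard error 0.08, 95% confidence interval −0.17 to 0.18, unadjusted p = 0.928 by edgeR). Nr1h3 (ENSMUSG00000002108; chromosome 2, 91184061 to 91202834), which in many tissues is the macrophage and liver form, ranged from 1.15 to 1.76 log2 CPM in CTRL with a median of 1.59, and was 1.55, 1.52, 1.55, 0.85 and 1.54 in DPAn-6 replicates 1 to 5. DPAn-6 replicate 4 lay below every CTRL mouse, and the other 4 lay together within the CTRL range. With all mice the log2 fold change was −0.07 (standard error 0.16, 95% confidence interval −0.41 to 0.26, unadjusted p = 0.647 by edgeR), and it was 0.04 without DPAn-6 replicate 4. Nr1h3 was measured from 27 to 78 counts per mouse and shares 34 exon bases, 1.35% of its exons, with Gm13783 on the same strand, which held 23 counts over all mice against 607 for Nr1h3.

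Neither PGC-1 coactivator passed the adjusted threshold, and the difference between the fold changes of the pair was not tested. Ppargc1a (ENSMUSG00000029167; chromosome 5, 51454250 to 51567726) encodes PGC-1α, a regulator of mitochondrial biogenesis. It ranged from 5.65 to 6.76 log2 CPM in CTRL with a median of 5.81, and was 5.77, 5.94, 6.03, 5.91 and 5.60 in DPAn-6 replicates 1 to 5. The highest CTRL value was CTRL replicate 3, and the other mice of both groups shared a range. For Ppargc1a the log2 fold change was −0.17 (standard error 0.17, 95% confidence interval −0.53 to 0.19, unadjusted p = 0.32 by edgeR) with all mice and −0.01 (standard error 0.09) without CTRL replicate 3. Ppargc1b (ENSMUSG00000033871) encodes PGC-1β, a close relative of PGC-1α. It ranged from 3.91 to 4.46 log2 CPM in CTRL with a median of 4.07, and was 3.87, 3.90, 4.01, 3.86 and 3.80 in DPAn-6 replicates 1 to 5. All 5 DPAn-6 mice lay below the CTRL mean and 4 lay below every CTRL mouse. DPAn-6 differed from CTRL by −0.25 in log2 fold change (standard error 0.10, 95% confidence interval −0.45 to −0.04), with an unadjusted p of 0.0216 and an adjusted p of 0.241 by edgeR and an exact permutation p of 0.0114. Leaving out CTRL replicate 3, its highest mouse, gave −0.18 (standard error 0.07, unadjusted p = 0.024 by edgeR, exact permutation p = 0.013). Over the 23 alternatives it stayed negative, from −0.33 to −0.18, and the unadjusted p was above 0.05 in 3 of them. With the summed excitatory neuron markers, r of Ppargc1b was 0.879 over all mice and 0.817 within groups (permutation p = 0.0107, adjusted permutation p = 0.443). Within groups it was 0.386 without CTRL replicates 3 and 2, whose sums were the most extreme. The part of these neurons was not tested.

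The GC content of the 10 genes is given because the deviation of CTRL replicate 3 followed GC content across genes. Rxrb (61.4% GC in its longest transcript) and Nr1h2 (60.6%) had the highest GC content of the 10 genes and Ppargc1a (41.7%) the lowest. A smooth trend of each library on transcript GC content and exon length, fitted over all genes tested, gave CTRL replicate 3 a deviation of −0.53 on the log2 scale for Rxrb, −0.51 for Nr1h2, −0.34 for Rxra, −0.33 for Rxrg and 0.46 for Ppargc1a. For Ppargc1b it gave −0.40, whereas the gene was at its highest in that mouse. With these trends removed, an alternative chosen after seeing the data, the log2 fold change was −0.41 for Ppara (unadjusted p = 0.00599, adjusted p = 0.0906 by edgeR), −0.13 for Rxra (unadjusted p = 0.032, adjusted p = 0.204) and −0.27 for Ppargc1b (unadjusted p = 0.0793), and no gene of the 10 had an adjusted p below 0.05.

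Scaled by length, the 10 genes spanned from a median of 17.6 CPM per kilobase of merged exons for Nr1h2 to 0.959 for Ppara. The order of the medians was Nr1h2, Rxrb, Rxra, Ppargc1a, Ppard, Ppargc1b, Rxrg, Pparg, Nr1h3 and Ppara. Nr1h2 and Rxrb led, with medians of 4.14 and 4.08 log2 CPM per kilobase, and Nr1h2 was the higher in 11 of 12 mice (two-sided exact sign-flip permutation test within mice, adjusted p = 0.0123 over 9 neighbour pairs). Rxra and Ppargc1a (3.22 and 3.14, adjusted exact permutation p = 0.977), Ppargc1b and Rxrg (2.02 and 1.92, adjusted exact permutation p = 0.196), Pparg and Nr1h3 (0.41 and 0.21, adjusted exact permutation p = 0.121) and Nr1h3 and Ppara (0.21 and −0.06, adjusted exact permutation p = 0.132) did not differ beyond their spread. Rxrg had the widest range between mice, 2.91 on the log2 scale, and Ppard the narrowest, 0.40. The levels depend on the exon length taken. With the longest transcript as length, Ppard moved up to the third place.

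**Figure D4:**
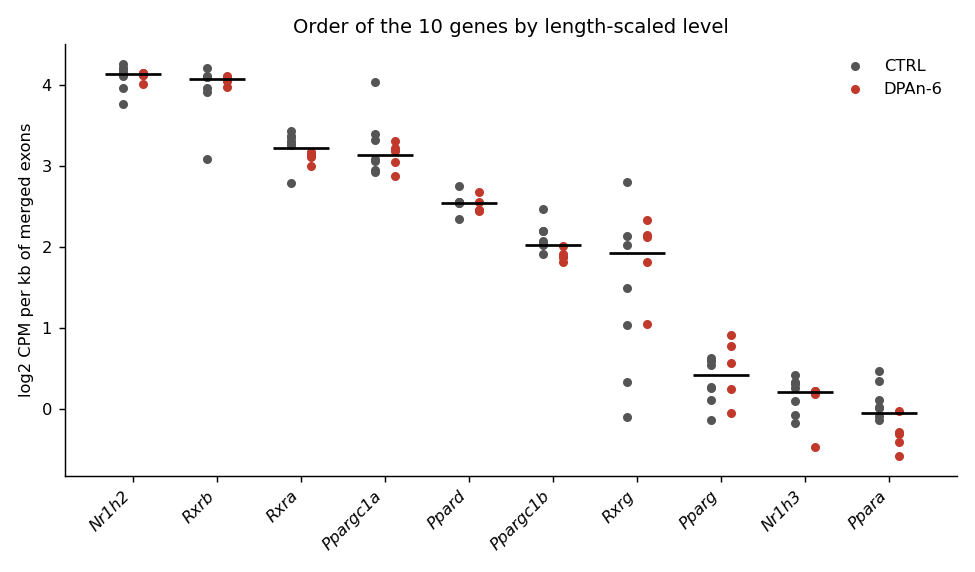
Log2 CPM per kilobase of merged exons (y axis) of the 10 genes in the order of their medians (x axis), 1 point per mouse, with CTRL in grey, DPAn-6 in red and the median over all 12 mice as a black line. The medians run from 4.14 for Nr1h2 to −0.06 for Ppara, and the points of Rxrg span 2.91 on the log2 scale.

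Within each family, 1 gene held most of the length-scaled mRNA. Ppard made up 71.5% ± 2.24 (SD, n = 7) of the summed PPAR level in CTRL mice, against 72.0% ± 3.6 (SD, n = 5) in DPAn-6 mice. Nr1h2 made up 93.8% ± 0.887 (SD, n = 7) of the summed LXR level in CTRL mice, against 94.2% ± 0.867 (SD, n = 5) in DPAn-6 mice. Rxrb made up 54.8% ± 1.82 (SD, n = 7) of the RXR level in CTRL mice, against 57.1% ± 2.5 (SD, n = 5) in DPAn-6 mice, and Ppargc1a 68.5% ± 3.6 (SD, n = 7) and 70.2% ± 1.6 (SD, n = 5) of the PGC-1 level. The share of Ppara among the PPARs was 13.1% ± 1.55 (SD, n = 7) in CTRL mice, against 10.1% ± 1.77 (SD, n = 5) in DPAn-6 mice (two-sided exact permutation test, p = 0.0114). The share of Rxra among the RXRs was 34.6% ± 5.1 (SD, n = 7) and 29.7% ± 1.36 (SD, n = 5), with an exact permutation p of 0.0644. Without CTRL replicate 3 the exact permutation p was 0.00216 for the share of Ppara, 0.102 for that of Rxra and 0.0693 for that of Ppargc1a. These shares are made from the same counts as the fold changes, and no p was adjusted over them.

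The difference between DPAn-6 and CTRL did not itself differ between 12- and 14-month mice for any of the 10 genes at an adjusted p below 0.05 (edgeR interaction of group and age, lowest adjusted p 0.905), and 0 of the 10 had an unadjusted p below 0.05, beside 4.26% of all genes tested. Ppargc1a came nearest. Its mean was 5.66 log2 CPM in CTRL and 5.97 in DPAn-6 at 12 months, and 6.11 in CTRL and 5.77 in DPAn-6 at 14 months (interaction −0.69, standard error 0.32, unadjusted p = 0.0505 by edgeR). The 14-month CTRL mice include CTRL replicate 3. Ppara was lower in DPAn-6 at both ages, with 2.12 and 1.72 log2 CPM at 12 months and 2.01 and 1.54 at 14 months, in CTRL and DPAn-6 respectively. With 2 mice per group at 12 months, these differences between ages are imprecise.

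Genes that the receptors act on or work with were taken from 7 lists, and 3 of the 124 genes tested from them had an adjusted p below 0.05 by edgeR, which is 2.42% beside 1.55% of all genes tested. The list calls in other settings stand beside more calls over all genes. DESeq2 called 696 genes, and edgeR without CTRL replicate 3 called 953 (6.1%). Of 29 PPAR target genes, 23 were tested and 0 had an adjusted p below 0.05 by edgeR, DESeq2 or limma-voom. At an unadjusted p below 0.05 there were 4, all lower in DPAn-6, beside 14.5% of all genes in either direction and 9.02% lower, which also stand beside the unadjusted counts of the other lists, and the list's median log2 fold change was −0.01. Ucp2, a mitochondrial carrier, had a log2 fold change of −0.42 (standard error 0.13, adjusted p = 0.131 by edgeR), and Cpt1a, the gate of mitochondrial fatty acid entry, −0.17 (standard error 0.07, adjusted p = 0.27). Without CTRL replicate 3, Ucp2 and Acaa2 had adjusted p below 0.05 (0.0471 and 0.0146 by edgeR).

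Of 16 LXR target genes, 14 were tested and 1 was called by edgeR, with 9 of 14 lower and a median of −0.03. Mertk, an engulfment receptor of glia and macrophages, ranged from 6.22 to 6.75 log2 CPM in CTRL and from 5.93 to 6.27 in DPAn-6, and fell by 0.40 in log2 CPM (standard error 0.09, adjusted p = 0.0485 by edgeR). Its adjusted p was below 0.05 in 6 of 23 alternatives, from 0.00443 by DESeq2 to 0.453 in the 14-month mice, and limma-voom did not call it. Abca1, the cholesterol exporter, had a log2 fold change of −0.27 (adjusted p = 0.26 by edgeR), and Scd2, a fatty acid desaturase and the most abundant gene of the list, −0.03. Of 9 retinoid target genes, 7 were tested and 0 were called by edgeR or limma-voom, 3 had an unadjusted p below 0.05, and DESeq2 called 1, Crabp2. Crabp2, a retinoic acid carrier, had a log2 fold change of −0.96 (standard error 0.25, adjusted p = 0.0699 by edgeR, and 0.0416 without CTRL replicate 3) from 10 to 44 counts per mouse. Tgm2, a transglutaminase and the most abundant of the list, had −0.12.

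Parvalbumin interneuron markers, a class in which Ppargc1a is known to be high, were higher in 10 of 10 genes, with sums of 1005 to 1173 CPM in CTRL and 1144 to 1386 CPM in DPAn-6, and their part was not tested. All 23 PGC-1 target genes were tested, 16 were higher and 7 lower in DPAn-6, with a median of 0.08. Pvalb and Syt2 are on both this list and that of the parvalbumin interneuron markers. None was called by edgeR or limma-voom, 1 had an unadjusted p below 0.05 by edgeR, and DESeq2 called 1, Idh3a. Idh3a, a subunit of the mitochondrial isocitrate dehydrogenase, had 7.42 log2 CPM in CTRL and 7.60 in DPAn-6 (adjusted p = 0.158 by edgeR). Tfam, the mitochondrial transcription factor, had a log2 fold change of 0.18 (adjusted p = 0.346), and Atp5b, a subunit of ATP synthase and the most abundant of the list, 0.14 (adjusted p = 0.635). Without CTRL replicate 3 the log2 fold change was 0.19 for Tfam and 0.05 for Atp5b. Of 20 coregulators, 16 were lower, with a median of −0.10, and 1 was called. Perm1, a muscle partner of PGC-1, ranged from −0.60 to 0.54 log2 CPM in CTRL and from −5.22 to −0.80 in DPAn-6. It fell by 2.26 in the fit, on the log2 scale (standard error 0.52, adjusted p = 0.045 by edgeR), from 0 to 22 counts per mouse, so the size of the change is poorly set, and its adjusted p was below 0.05 in 10 of 23 alternatives. Ep300, a histone acetyltransferase, had −0.21 (adjusted p = 0.278 by edgeR), and Ncor1, a corepressor and the most abundant of the list, −0.17 (adjusted p = 0.528). Without CTRL replicate 3 the log2 fold change was −0.14 for Ep300 and −0.06 for Ncor1.

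Of 38 other nuclear receptors, 29 were tested and 0 were called by edgeR, DESeq2 or limma-voom, and 4 had an unadjusted p below 0.05 by edgeR, with a median of −0.05. Rara, the retinoic acid receptor α, was 3.66 log2 CPM in CTRL and 4.03 in DPAn-6 (adjusted p = 0.142), and Thra, the thyroid hormone receptor α and the most abundant of the list, had a log2 fold change of −0.02. Without CTRL replicate 3, edgeR called 3 of them, Nr1d1 (0.30), Nr2f6 (−0.31) and Nr4a3 (0.53 on the log2 scale), beside 6.1% of all genes called in that setting. Of 14 genes for ligand supply and carriers, 13 were tested and 1 was called by edgeR and by limma-voom, while DESeq2 called 3, Fabp7, Crabp2 and Aldh1a1. Fabp7, a carrier of long-chain fatty acids in astrocytes and neural progenitors, ranged from 3.02 to 3.63 log2 CPM in CTRL and from 3.84 to 4.33 in DPAn-6. Its groups did not overlap. It rose by 0.82 in log2 CPM (standard error 0.12, adjusted p = 0.00429 by edgeR, exact permutation p = 0.00126, which is the least that 7 against 5 mice can give), and its adjusted p was below 0.05 in 23 of 23 alternatives. Aldh1a1, which makes retinoic acid, had a log2 fold change of −0.85 (standard error 0.20, adjusted p = 0.0533 by edgeR, below 0.05 in 6 of 23 alternatives and 0.0156 without CTRL replicate 3), and Cyp46a1, which makes an oxysterol from cholesterol in neurons and is the most abundant of the list, −0.00. Of 10 astrocyte markers, 8 were lower in DPAn-6, with summed levels of 7259 to 11808 CPM in CTRL and 6549 to 8071 CPM in DPAn-6. The sum of 11808 CPM was CTRL replicate 3, and the next highest CTRL sum was 9157 CPM.

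**Figure D5:**
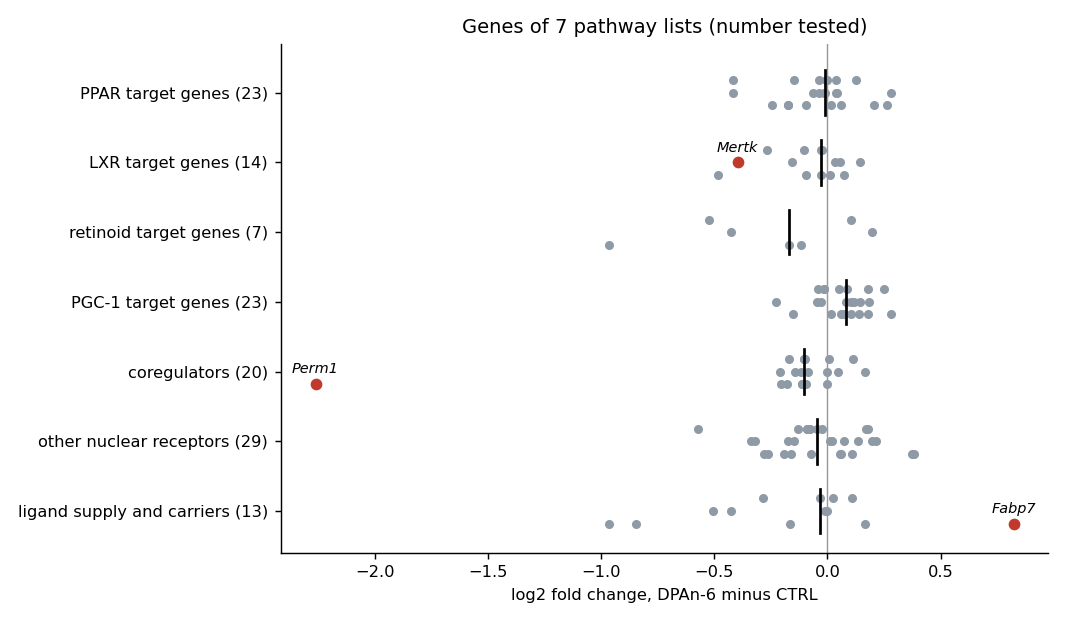
Log2 fold change (x axis, DPAn-6 minus CTRL) of the tested genes of 7 pathway lists (y axis, with the number tested), 1 point per gene, with genes of an adjusted p below 0.05 by edgeR in red and named, and the median of each list as a black line. Mertk (−0.40), Perm1 (−2.26) and Fabp7 (0.82) are the named genes, and the list medians lie between −0.17 and 0.08.

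The genes whose pattern over the mice was most like that of each member were found by Pearson's r of log2 CPM centred on the group means, over the 12 mice, as a description. Rxrg was most like Gng7 (r = 0.969), a G protein subunit that is itself on the striatal marker list, and Lrrc10b (r = 0.961). Ppara was most like Racgap1 (r = 0.912) and Sord (r = 0.910), Ppard like Srsf4 (r = 0.926) and Cdk3-ps (r = 0.903), and Pparg like Asf1b (r = 0.880) and Atrip (r = 0.849). Rxra was most like Cerk (r = 0.982) and Rab11fip5 (r = 0.981), Rxrb like Fam213b (r = 0.992) and Rnf187 (r = 0.990), and Nr1h2 like Rfc2 (r = 0.988) and Atg2a (r = 0.987). Nr1h3 was most like Bcl7b (r = 0.916) and Emc10 (r = 0.885), Ppargc1a like Zc3h14 (r = 0.981) and Usf3 (r = 0.979), and Ppargc1b like R3hdm1 (r = 0.955) and Srrm1 (r = 0.954). Spearman's rho ranged from 0.734 to 0.958 over these 20 pairs. The libraries are shared by all pairs, CTRL replicate 3 included. Each pair was picked for the highest r over all genes tested, so a high r was built in by the choice. Without centring, r ran from 0.027 for Ppara and Racgap1 to 0.990 for Rxrb and Rnf187. Atrip, Asf1b and Cdk3-ps were scarce, with mean levels of 0.54, 0.648 and 1.11 CPM.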

How the data were processed

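RNA-Seq counts of the cortex of 12 E4FAD mice were used, 7 CTRL and 5 DPAn-6, with groups and ages from the sample labels. Libraries were made by the authors from poly(A) mRNA with a KAPA kit, and their processing notes name STAR 2.5.3a and the builds mm10 and GRCm38. The deposited table holds unnormalized counts, 1 row per gene and 1 column per mouse. Whether counting used the strand is not given in the sources used here. Of 50563 identifiers, 50339 were matched to GENCODE M21 (GRCm38). Total counts per mouse ranged from 15208803 to 26520251.

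Counts were compared with edgeR 4.0.16 in R 4.3.3 (TMM, filterByExpr by group, quasi-likelihood test, no covariate) over 15688 genes, with Benjamini-Hochberg adjustment over all of them. Log2 CPM used a pseudocount of 0.5 and TMM-scaled totals. Exact permutation tests over mice and correlations used scipy 1.17.1, pandas 2.3.3 and numpy 2.4.6 in Python 3.11.15, and figures matplotlib 3.10.9. Alternatives were DESeq2 1.42.0, limma-voom (limma 3.58.1, the method the paper names), no TMM, DESeq2 size factors in edgeR, no low-count filter, a minimum of 1 CPM in 5 mice, Xist or age as covariate, the 14-month mice alone, replicate number as block, each mouse left out in turn and, added after seeing the data, removal of the dependence of each library on GC content and transcript length. A batch label was not found. In 3 simulated tables of 15560 genes for this comparison, with 200 genes changed, edgeR recovered 83.25% to 90.45% of the changed genes tested, and 4.65% to 7.90% of its calls were false at a threshold of 0.05. The simulated counts held no outlying library and no trend on GC content or length, so these rates need not hold for the measured libraries.

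The 10 genes and all gene lists were chosen with earlier results of these data known. Named from each pathway list were the genes with an adjusted p below 0.05, the 2 with the smallest p and the most abundant, and from the likeness search the 2 most alike genes per member. Of the genes this rule names, 3 are not reported here. Acaa2, Nr1d1, Nr2f6 and Nr4a3 fall outside this rule and were named after their values were seen. Promoter windows are from RefSeq.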

Additional observations from a re-analysis of the deposited data

Results flagged for a closer look

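The spread of each of the 10 genes, and of the 3 list genes with an adjusted p below 0.05, was examined within each group for a mouse whose gap to the nearest other mouse was large against the range of the group (Dixon's criterion at 95%), which chance meets in about 1 in 20 groups. Of the 26 groups examined, 5 met it. In CTRL, replicate 3 was low for Rxra, at 5.24 log2 CPM (the gap was 0.723 of the range, critical value 0.568), and for Rxrb, at 5.08 (0.738). The same mouse was high for Ppargc1a, at 6.76 log2 CPM (0.577). In DPAn-6, replicate 4 was low for Nr1h2, at 5.77 log2 CPM (0.875, critical value 0.71), and for Nr1h3, at 0.85 (0.947). DPAn-6 replicate 4 had the lowest total count, 15208803.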

How the results depend on the processing

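The count of all genes with an adjusted p below 0.05 was 243. It was 696 by DESeq2, 9 in the 14-month mice only, 69 with the replicate block, 541 with the dependence of each library on GC content and length removed (chosen after seeing the data), and from 64, without DPAn-6 replicate 3, to 953, without CTRL replicate 3, with 1 mouse left out. The count of the 10 genes with an adjusted p below 0.05 was 0, and 0 to 1 with 1 mouse left out, Rxra being called without CTRL replicate 3. The count at an unadjusted p below 0.05 was 2, and 1 to 3 with 1 mouse left out. The lowest count was without DPAn-6 replicate 4 or 5, when Ppargc1b had an unadjusted p of 0.0516 and 0.0637. With the replicate block the count was 2. Correlations of the deviations of same-numbered mice ranged from −0.12 to 0.22. Of the 5 CTRL mice numbered alike, 1 correlated best with the DPAn-6 mouse of its own number. Whether the replicate numbers pair the mice was not tested. The count of pathway list genes called was 3. It was 6 by DESeq2 (beside 696 of all genes) and 1 in the 14-month mice only (beside 9). With the replicate block it was 1 (beside 69), and with that dependence removed 5 (beside 541). With 1 mouse left out it ran from 1 to 10. The highest was without CTRL replicate 3, where 953 of all genes (6.1%) were called. Signs turned for 4 genes, none of them past a threshold. With 1 mouse left out the log2 fold change ran from −0.07 to 0.001 for Ppard, −0.01 to 0.14 for Rxrb, −0.04 to 0.04 for Nr1h2 and −0.12 to 0.04 for Nr1h3. It was 0.02 for Ppard and −0.004 for Nr1h2 with that dependence removed, and 0.13 for Nr1h3 in the 14-month mice only. The cause of these differences between settings was not tested. The interaction with age was 0 of 10 in each setting. Ppara, Nr1h3, Pparg and Rxrg were measured from the fewest counts, which limits them most.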
